A study of Mus musculus with 40 samples.

Results

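Genes that mark hepatic stellate cells or the fibrous matrix of the liver were followed in mice given GenX for 90 days. They were 10 of the 21448 gene symbols in the deposited counts. Members were the rows whose gene symbol was Col1a1, Col1a2, Col3a1, Acta2, Des, Lrat, Timp1, Tgfb1, Dcn or Ecm1. All 10 passed the filter on low counts, as did 12412 genes in all. The 40 wild-type Crl:CD1(ICR) mice, of stated sex but with no age in the labels, formed 8 groups of 5: males and females given water alone by gavage (control, 0 mg/kg) or GenX at daily doses of 0.1, 0.5 and 5 mg/kg. RNA came from scraped sections of formalin-fixed, paraffin-embedded liver and was measured with TempO-Seq, in which paired probes on an RNA are joined, amplified and counted as reads. The library of mouse 355 (female, 0.5 mg/kg) had 6711981 reads, over 2 SD under the mean of all libraries, and entered no fit, so that group had 4 mice.

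Stellate cells lie between the hepatocytes and the lining of the sinusoids and store vitamin A, which LRAT converts to retinyl esters. On liver injury they can become myofibroblasts, which make α-smooth muscle actin (Acta2) and lay down type I and type III collagen. TGF-β1, made by several cell types, drives that change, and TIMP1 holds back the metalloproteinases that break the matrix down. These genes are read here as markers in whole tissue, where fewer cells of a type and less RNA per cell cannot be told apart.

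In males given 5 mg/kg 2 of the 10 genes rose and 1 fell, where 9.35% of all genes passed the test in either direction. Both that rose encode fibrillar collagens: Col3a1, the chain of type III collagen, 5.46-fold, and Col1a1, the α1 chain of type I collagen, 3.09-fold. Ecm1, a secreted matrix glycoprotein, fell to 113 ± 41 from 179 ± 8.91 CPM (reads per 1000000 reads of the scaled library; SD, n = 5 each). In females at the same dose none of the 10 genes passed the test, where 4.09% of all genes did, although Ecm1 lay at 127 ± 28.1 against 190 ± 49.2 CPM. The markers of stellate cell identity and of myofibroblasts (Lrat, Des and Acta2) passed it in no dose group.

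Depth set how well each member could be read. The 39 libraries held 10341341 to 15562253 reads, but reads piled up in steps of 20.8 to 49.8, so that a library stood for 287244 to 656743 captured molecules. Reads of Ecm1, Dcn and Col1a1 were present in 39 of 39 libraries, with a median of 62.1, 15.6 and 6.36 molecules per library. Col1a2 and Col3a1 had reads in 38 libraries, with medians of 3.97 and 4.73 molecules. Des, Lrat and Tgfb1 were found in 35, 34 and 33 libraries, at medians of 3.07, 2.4 and 1.78 molecules. Acta2 had reads in 18 libraries and Timp1 in 7, so both had a median of 0. Each value is that of the most counted of a gene's probes, and levels of different genes are not compared, since probes differ in how well they capture. The livers of males given 5 mg/kg gave 483008 to 656743 molecules, against 287244 to 369995 in male controls. With molecules thinned at random to 287183 in every library the same 3 members were called in males at 5 mg/kg. Timp1 then had an adjusted p of 0.199 in edgeR's test, against 0.081 with all molecules. Beyond this thinning, the part of library size in the detection of rare RNAs was not tested. In females at 5 mg/kg the range was 306232 to 339820, against 307766 to 521441 in their controls.

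RefSeq promoter sequences (GRCm38.p6) were found for 8 of the 10 members, and Col1a1 and Dcn were not among them. Those of Col3a1 and Ecm1, which moved in opposite directions in males, and of Col1a2, whose product pairs with that of Col1a1 in type I collagen, are shown as the 250 bases before the RefSeq start site, at chr1:45311288-45311537, chr3:95739570-95739819 and chr6:4505368-4505617. Capitals mark the TATA box letters TATAAA and the SMAD binding element CAGACA, the letters bound by the SMAD proteins that carry the TGF-β signal, both searched on both strands. Col3a1 lies at chr1:45311538-45349706 on the plus strand, Col1a2 at chr6:4504814-4541544 on the plus strand and Ecm1 at chr3:95734147-95739569 on the minus strand (GENCODE vM21, GRCm38). The RefSeq start of Col1a2 differs from that of GENCODE, and its window lies inside the GENCODE gene.
Col3a1: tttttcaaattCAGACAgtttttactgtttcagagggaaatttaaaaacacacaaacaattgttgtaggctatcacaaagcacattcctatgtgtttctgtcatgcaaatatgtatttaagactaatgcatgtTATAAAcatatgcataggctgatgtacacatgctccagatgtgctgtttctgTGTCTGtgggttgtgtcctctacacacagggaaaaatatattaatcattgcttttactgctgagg
Col1a2: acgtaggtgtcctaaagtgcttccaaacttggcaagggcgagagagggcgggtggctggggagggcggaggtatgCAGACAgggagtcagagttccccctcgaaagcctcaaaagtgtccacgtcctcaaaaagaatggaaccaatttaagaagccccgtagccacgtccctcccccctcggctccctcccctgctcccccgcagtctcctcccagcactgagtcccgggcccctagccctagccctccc
Ecm1: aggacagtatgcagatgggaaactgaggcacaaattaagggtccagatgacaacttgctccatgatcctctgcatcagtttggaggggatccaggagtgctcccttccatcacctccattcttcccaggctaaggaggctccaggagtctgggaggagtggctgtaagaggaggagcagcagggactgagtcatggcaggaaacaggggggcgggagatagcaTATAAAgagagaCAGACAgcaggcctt
In the 300 bases from 250 before to 50 after the start, TATAAA began at position -117 in Col3a1 and at -27 in Ecm1, and was present in 13.6% of the 32851 promoters of this length. CAGACA or its reverse was present in all 3 of these promoters, once at -175 in Col1a2, once at -15 in Ecm1 and at -239 and -65 in Col3a1, against 21% of all promoters. The promoters of Acta2 and Des also held it, and those of Lrat, Timp1 and Tgfb1 did not. The DR1 letters AGGTCANAGGTCA, a consensus of sites for PPARα with its partner RXR, were in none of the 8 and in 0.0396% of all promoters. The letters do not overlap one another in the windows shown, and a match describes the sequence only.

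Differences between groups were tested with edgeR's quasi-likelihood test, adjusted by the Benjamini-Hochberg method over all 17877 probes, and called at an adjusted p below 0.1. In males at 5 mg/kg 3 of the 10 members were called, where 9.35% of all 12412 genes were. The ranges of the 2 groups were separate for the same 3 members, against 9.31% of all genes. The median log2 fold change of the members was 0.97, or 0.75 with Timp1 at the bound given for it below, and that of all genes was 0.11. In females at 5 mg/kg 0 of 10 members were called and 4.09% of all genes were, and no member had separate ranges, against 3.71% of all genes. The median of the members in females was 0.07, or 0.13 without Timp1, which had no reads in either group, and that of all genes -0.01. With 3 and 0 members called, the counts describe these genes and say nothing about fibrosis genes as a class.

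The 2 members that rose are described first. In male controls Col3a1 was at 6.38, 9.2, 9.52, 5 and 13.4 CPM, and in males at 5 mg/kg at 33, 60.8, 59.1, 33.5 and 51 CPM. Every treated male was above every control male. The log2 fold change was 2.45 ± 0.67 (SE), with an adjusted p of 0.0135 in edgeR's test. In molecules the group means were 2.74 in controls and 28.9 at 5 mg/kg. Males at 0.1 mg/kg had 0 to 23.6 CPM and males at 0.5 mg/kg had 2.71 to 39.3 CPM, both overlapping the controls. At 0.5 mg/kg 1 mouse, 305, made up that width, and the other 4 lay between 2.71 and 10.5 CPM. A second probe of Col3a1 was also higher in every treated male than in every control male (log2 fold change 2.34 ± 1.02) but missed the threshold at an adjusted p of 0.183. The third, seen in 25 libraries, had a log2 fold change of -0.44 ± 1.89.

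Col1a1 (chr11:94936224-94953042, plus strand) was at 5.56, 11.3, 24, 18.9 and 24.1 CPM in male controls and at 60.7, 70.2, 38.7, 48.1 and 41.6 CPM in males at 5 mg/kg. The 2 ranges were separate, and the log2 fold change was 1.63 ± 0.53, with an adjusted p of 0.0546 in edgeR's test. Without mouse 101 the adjusted p was 0.16, without mouse 102 0.135 and without mouse 402 0.138, so that the call did not hold without any of these 3 mice, and with all 40 libraries in the fit it was 0.119. At the lower doses males had 6.58 to 17 CPM (0.1 mg/kg) and 3.71 to 27.8 CPM (0.5 mg/kg), within or near the range of controls. Its second probe had a log2 fold change of 1.48 ± 0.92 at 5 mg/kg (adjusted p = 0.407). Col1a2, the partner chain, was at 0 to 13.6 CPM in male controls and 12.4 to 40.3 CPM at 5 mg/kg. These ranges overlapped, and its log2 fold change of 1.27 ± 0.66 was not called (adjusted p = 0.247).

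In females the 3 collagens overlapped the controls at every dose. Col3a1 was at 20.7, 1.89, 17.9, 23.7 and 2.79 CPM in controls and at 20.1, 19.9, 10.3, 24.8 and 36.6 CPM at 5 mg/kg, for a log2 difference of 0.74 ± 0.64 (adjusted p = 0.841 in edgeR's test). Col1a1 was at 19.9, 14.2, 28.2, 27.7 and 14.6 CPM in controls and at 31.7, 58.6, 5.9, 10.4 and 17.5 CPM at 5 mg/kg. Its treated females lay on both sides of the controls, and the log2 fold change was 0.25 ± 0.52 (adjusted p = 1). Col1a2 had a log2 fold change of 0.52 ± 0.65 (adjusted p = 1).

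The difference between the sexes was tested as an interaction. At 5 mg/kg the female minus male difference in log2 fold change was -1.71 ± 0.91 for Col3a1 (adjusted p = 0.43 in edgeR's test) and -1.38 ± 0.74 for Col1a1 (adjusted p = 0.438). Neither passed, so a rise in males alone is not shown for either gene. Of the 10 members 0 were called in the interaction at 5 mg/kg, where 1.19% of all genes were. An unadjusted p below 0.05 was reached by 0 members and by 12.6% of all genes. The interactions at 0.1 and 0.5 mg/kg also called 0 members, with 0% and 0.322% of all genes called. In either, 0 members had an unadjusted p below 0.05, against 7.98% and 10.7% of all genes. Between female and male controls 0 members were called and 3.89% of all genes were. Again 0 members had an unadjusted p below 0.05, against 18.9% of all genes. DESeq2 called 0 members in each of these 4 comparisons.

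**Figure D1:**
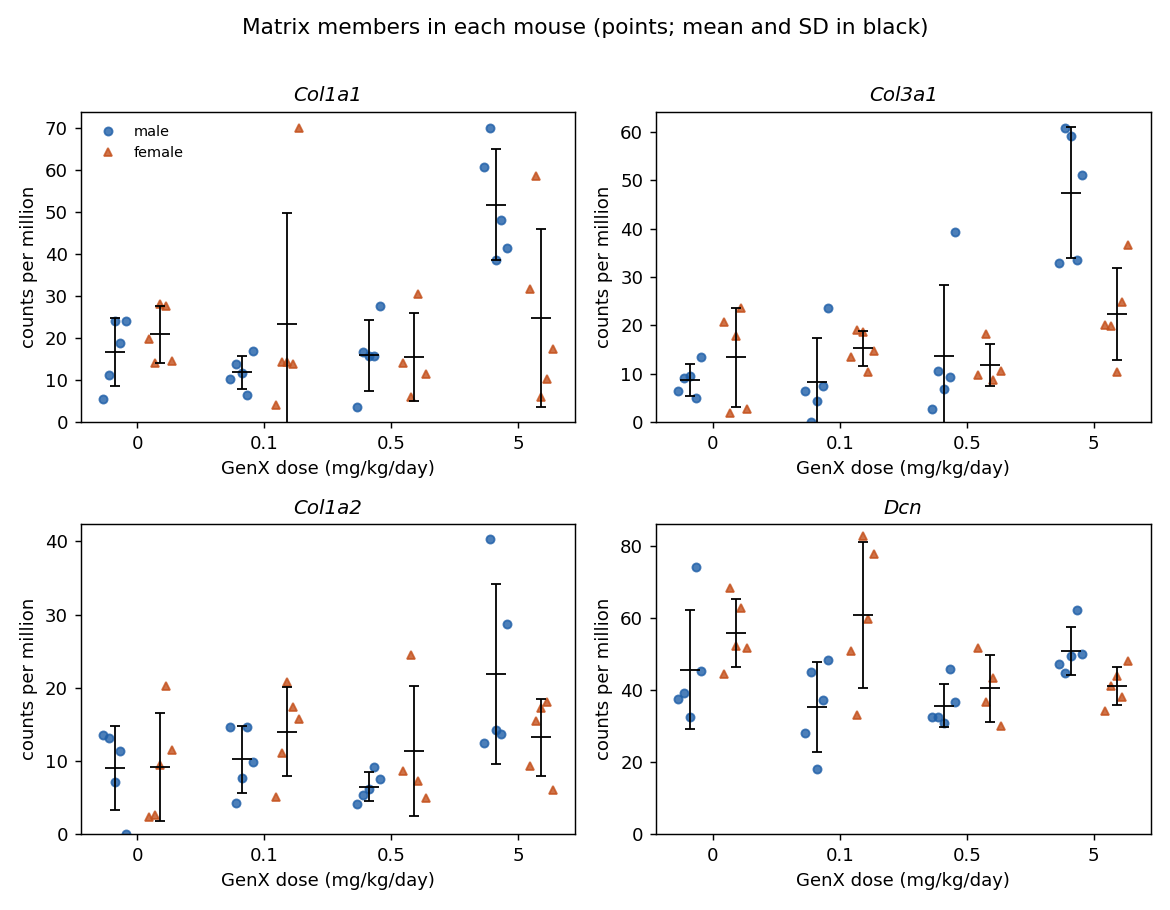
CPM (y axis) of Col1a1, Col3a1, Col1a2 and Dcn in each mouse, by GenX dose (x axis, mg/kg/day), with males as circles, females as triangles and the mean and SD of each group in black (bars cut at 0). The 5 males at 5 mg/kg lie at 38.7 CPM or more for Col1a1 and 33 CPM or more for Col3a1, above all male controls, whereas the Dcn points of treated and control males overlap.

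Dcn, which encodes decorin, a small proteoglycan that binds collagen fibrils, was called in neither sex. It was at 37.4, 39.2, 32.4, 74.1 and 45.3 CPM in male controls and at 47.3, 44.7, 49.4, 62.1 and 50.1 CPM at 5 mg/kg, with a log2 fold change of 0.15 ± 0.24 (adjusted p = 0.984 in edgeR's test). With a median of 15.6 molecules per library it was among the better counted members. In females it was at 44.3 to 68.3 CPM in controls and 34.1 to 48 CPM at 5 mg/kg, for a log2 difference of -0.44 ± 0.24 that was not called (adjusted p = 0.378).

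Ecm1 (extracellular matrix protein 1), the best counted of the 10, had a lower mean at 5 mg/kg in both sexes, and the difference was called in males. Male controls were at 172, 188, 172, 190 and 173 CPM and males at 5 mg/kg at 135, 64.9, 74.1, 156 and 137 CPM. Every treated male was below every control, and the log2 fold change was -0.66 ± 0.19 (adjusted p = 0.0239 in edgeR's test). Mice 402 and 403 were the lowest: without 402 the log2 fold change was -0.52 (adjusted p = 0.122) and without 403 it was -0.54 (adjusted p = 0.118). Before scaling to library size the mean was 57.3 molecules in male controls and 68.6 at 5 mg/kg, so the fall is one relative to the other RNAs of the library. Female controls were at 175, 129, 185, 196 and 265 CPM and females at 5 mg/kg at 125, 105, 102, 172 and 129 CPM. The ranges overlapped, and the log2 fold change of -0.58 ± 0.19 missed the threshold (adjusted p = 0.107). It was called without control mouse 152 (log2 fold change -0.69, adjusted p = 0.0435) and without treated mouse 454 (-0.72, adjusted p = 0.0409). The interaction of 0.08 ± 0.27 was not called (adjusted p = 1). The 2 other probes of Ecm1 had medians of 2.16 and 0.409 molecules, and in males their log2 fold changes were 0.01 ± 1.07 and -0.78 ± 2.04.

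Some hepatocyte genes fell as well. Of 7 hepatocyte markers tested, 4 fell in males at 5 mg/kg (Trf, Cps1, Hnf4a and Apob) and 3 were not called, where 9.35% of all genes were. In females 3 fell (Trf, Cps1 and Hnf4a) and 4 were not called, where 4.09% of all genes were. Trf, which encodes transferrin, changed by a log2 of -0.96 ± 0.12 in males and -0.67 ± 0.12 in females (adjusted p = 3.67e-08 and 0.000111 in edgeR's test). The summed level of the list was 13100 to 15100 CPM in male controls and 9310 to 11800 CPM at 5 mg/kg, with none of its genes at 0. Its part in the fall of Ecm1 was not tested.

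Lrat, the enzyme of vitamin A storage that marks quiescent stellate cells, was at 2.75, 0, 6.55, 9.05 and 3.43 CPM in male controls and at 7.77, 9.92, 19, 14.6 and 17.2 CPM in males at 5 mg/kg. The 2 groups overlapped by 1 control mouse, and the log2 fold change of 1.65 ± 1.08 did not pass (adjusted p = 0.453 in edgeR's test). With counts in whole molecules instead of reads it passed, at an adjusted p of 0.0734. This was the 1 of 8 other settings in which Lrat passed. Females were at 3.18 to 14 CPM in controls and 3.15 to 15.6 CPM at 5 mg/kg.

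Des, which encodes the intermediate filament desmin found in stellate and smooth muscle cells, was at 0, 10.4, 6.16, 13.6 and 13.6 CPM in male controls and at 3.99, 5.05, 1.68, 6.39 and 3.1 CPM at 5 mg/kg. The groups overlapped, and the log2 fold change was -1.11 ± 0.97 (adjusted p = 0.705 in edgeR's test). In females it was 0.13 ± 0.95 (adjusted p = 1). Acta2, the mark of myofibroblasts and of vessel walls, had reads in 2 of 5 male controls, with up to 5.56 CPM, and in 5 of 5 males at 5 mg/kg, at 1.56 to 4.81 CPM. No treated male exceeded the highest control, and the log2 fold change was 0.67 ± 2.38 (adjusted p = 1). In females reads of Acta2 were present in 4 of 5 controls and 2 of 5 mice at 5 mg/kg.

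Timp1 had no reads in any control mouse of either sex, in males at 0.1 mg/kg or in females at 5 mg/kg. In males at 5 mg/kg it was at 3.24, 2.02, 2.59, 0 and 7.04 CPM, with reads in 4 of 5 mice. One mouse had reads in each of the male 0.5 mg/kg, female 0.1 mg/kg and female 0.5 mg/kg groups, at 1.94, 2.96 and 2.8 CPM. The 216 reads of the males at 5 mg/kg stood for 9.2 molecules. Set against a floor of 3 molecules over the control group, and allowing for the larger libraries, the level at 5 mg/kg was 1.78-fold higher. This bound covers the counting error of the controls alone. The 9.2 molecules enter it as exact, so it does not secure a rise. The comparison with controls did not pass (adjusted p = 0.156 in edgeR's test).

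Tgfb1, which encodes the cytokine itself, passed the test at no dose in either sex. It was at 0 to 14.2 CPM in male controls and 0 to 4.97 CPM at 5 mg/kg (log2 fold change -1.47 ± 1.33, adjusted p = 0.733 in edgeR's test), and at 2.14 to 6.68 and 0 to 11 CPM in the females (0.74 ± 1.3, adjusted p = 1).

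**Figure D2:**
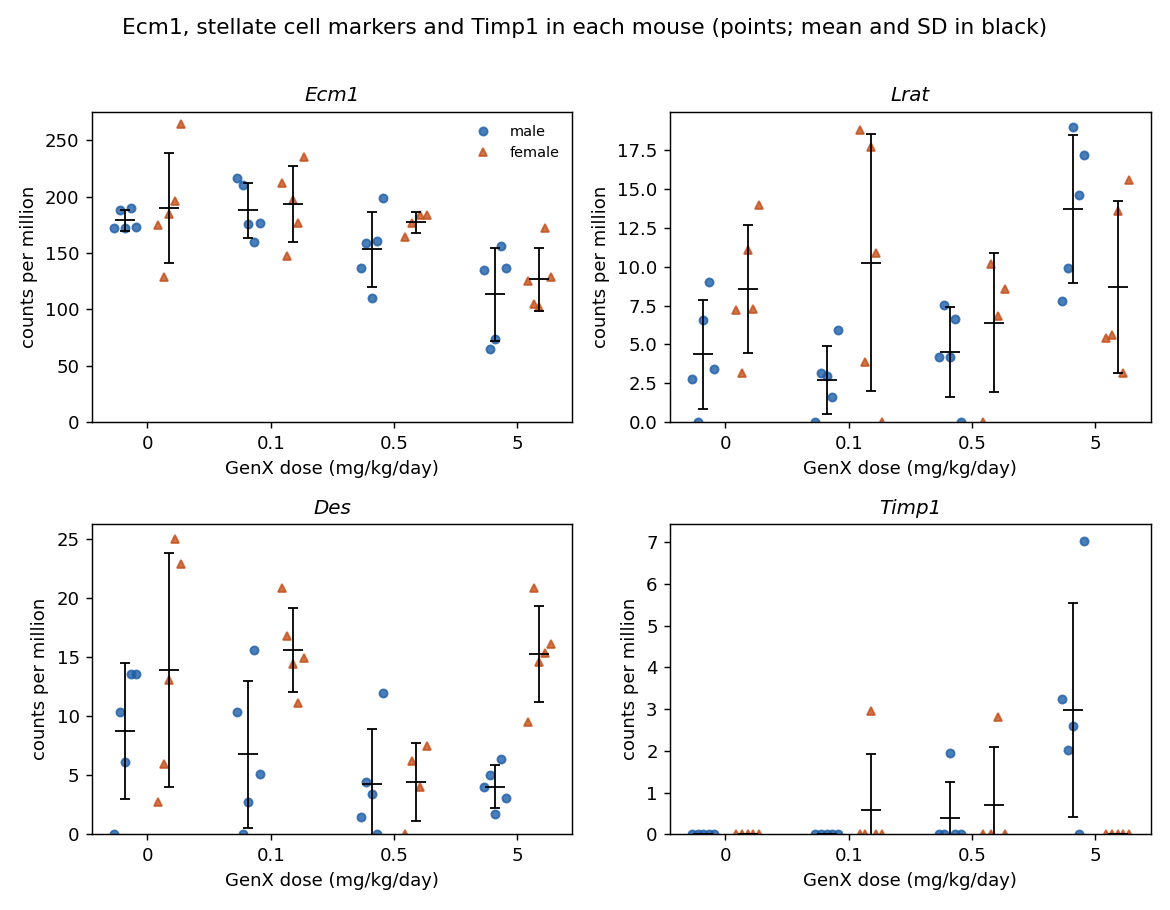
CPM (y axis) of Ecm1, Lrat, Des and Timp1 in each mouse, by GenX dose (x axis, mg/kg/day), with males as circles, females as triangles and the mean and SD of each group in black (bars cut at 0). Ecm1 lies lower at 5 mg/kg, at 64.9 to 156 CPM in males, and Timp1 is at 0 in all control mice.

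At 0.1 and 0.5 mg/kg none of the 10 members was called in either sex. Of all genes 0.0403% were called in males at 0.1 mg/kg and 2.61% at 0.5 mg/kg, and in females 0% and 0.201%. In males 0 members had an unadjusted p below 0.05 in edgeR's test at either dose, against 12.9% and 18% of all genes. Among females 1 had at each dose, against 9.6% and 9.83% of all genes. It was Timp1 both times, with reads in 1 treated mouse and in no control. DESeq2 called 0 members in these 4 comparisons and 1, Ecm1, in females at 5 mg/kg. There 1 member had an unadjusted p below 0.05 in edgeR's test, against 18% of all genes.

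Across the 4 dose groups, taken as equal steps in order, 4 members had a trend in males, where 11.9% of all genes did. Col3a1 rose by a log2 of 0.81 ± 0.21 per step (adjusted p = 0.00811 in edgeR's test) and Col1a1 by 0.53 ± 0.17 (adjusted p = 0.0398, or 0.114 without mouse 101), and Ecm1 had a slope of -0.23 ± 0.06 (adjusted p = 0.0104). For both collagens the rise lay in the last step: the means of Col1a1 were 16.8, 11.9, 15.9 and 51.9 CPM from control to 5 mg/kg, and those of Col3a1 were 8.69, 8.39, 13.8 and 47.5 CPM. The means of Ecm1 were 179, 188, 153 and 113 CPM, and the first 3 of these groups overlapped. Timp1 was the fourth (adjusted p = 0.077), with no slope given because 2 of the groups held no reads. With reads in 7 libraries, 4 of them of males at 5 mg/kg, it entered the test through the group where it was high, and with no low count filter it was not called (adjusted p = 0.127), which leaves the other 3 members. Its call was lost without mouse 303, the single mouse with reads at 0.5 mg/kg (adjusted p = 1), and without any of the 5 controls (adjusted p 0.129 to 0.131). In females 1 member, Ecm1, had a trend, at -0.19 ± 0.06 per step (adjusted p = 0.0954), where 4.32% of all genes had one. That call held without mice 152, 252, 254 or 454 and was lost without any 1 of the 15 others (adjusted p 0.105 to 0.271). The means of Ecm1 in females were 190, 194, 177 and 127 CPM from control to 5 mg/kg.

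**Figure D3:**
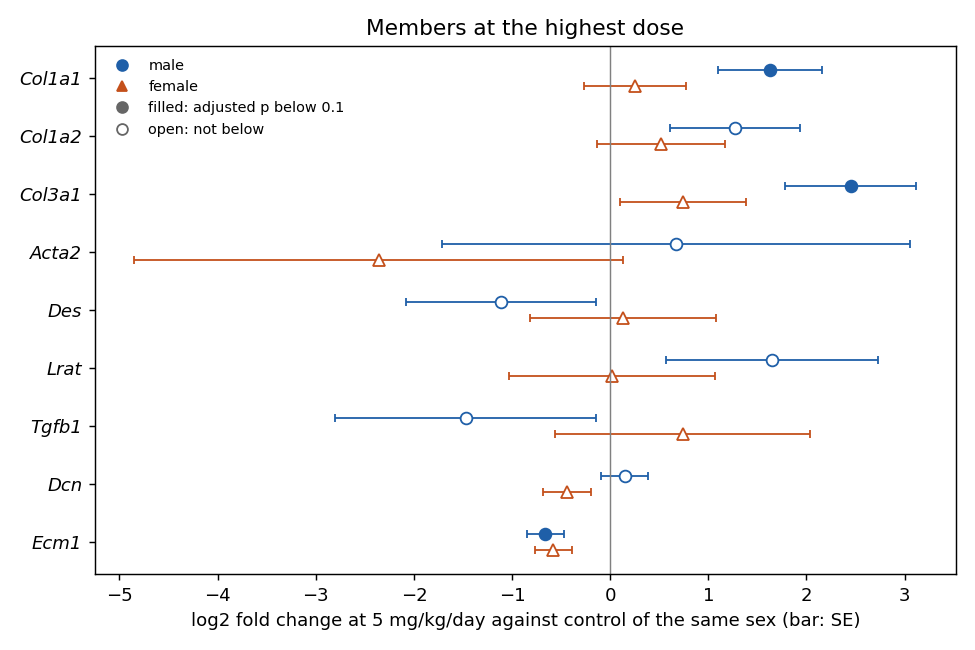
Log2 fold change (x axis, with SE bars) at 5 mg/kg against control mice of the same sex for 9 of the members (y axis), with males as circles and females as triangles, filled where the adjusted p was below 0.1. Timp1 is left out because its controls held no reads. The filled points are Col1a1 (1.63), Col3a1 (2.45) and Ecm1 (-0.66) in males, and the female points are open.

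Over the 39 libraries the members followed each other weakly. Pearson's r of log2 CPM was 0.46 between Col1a1 and Col3a1, 0.31 between Col1a2 and Col3a1 and 0.13 between Col1a1 and Col1a2, and after subtraction of the group means it was 0.22, 0.13 and -0.07. The points share libraries and depth, and most rest on a few molecules. Among 12411 other genes, the pattern most like that of Ecm1 was that of Rdh7 (r = 0.76), followed by Lrp1 (0.75). The nearest to Col3a1 were Tmem60 (0.77), Tnip1 (0.75) and Marcks (0.7), and the nearest to Col1a1 were Anxa2 (0.68), Ralgds (0.66) and Hist1h3c (0.66). For Dcn they were Igfbp7 (0.63), Trim68 (0.62) and Rcor3 (0.61).

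Other matrix genes were called as both higher and lower. Of 34 tested, 2 rose and 2 fell in males at 5 mg/kg, near the 9.35% of all genes called there, with a list median log2 fold change of 0.55 (0.48 with genes without reads in 1 group at their bound, 1 of them giving no fold) against 0.11 for all genes. The 2 that rose, Col4a1 and Col4a2, form the main type IV collagen of basement membranes. Col4a1 rose by a log2 of 1.54 ± 0.19 in males (adjusted p = 1.71e-08 in edgeR's test) and 0.76 ± 0.18 in females (adjusted p = 0.00862), and in both sexes the treated mice lay above all controls. Col4a2 had 1.17 ± 0.36 in males (adjusted p = 0.0395) and 0.9 ± 0.36 in females, which did not pass (adjusted p = 0.256). Fn1, fibronectin, which hepatocytes also secrete into plasma, fell in both sexes, with log2 fold changes of -0.92 ± 0.15 in males and -1.05 ± 0.15 in females (adjusted p = 1.67e-05 and 2.48e-06). Col18a1 fell in males (-0.47 ± 0.13, adjusted p = 0.0141). In females 1 of the 34 rose and 1 fell, where 4.09% of all genes were called, and the list median was -0.25 (-0.24 with bounds) against -0.01 for all genes.

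Enzymes that build or break down collagen gave calls in both directions. Their counts too are read against the 9.35% of all genes called in males and 4.09% in females. Of 13 collagen processing genes tested, 0 rose and 2 fell in males, Plod1 (-0.83 ± 0.22, adjusted p = 0.0116 in edgeR's test), a lysyl hydroxylase, and P4hb (-0.46 ± 0.15, adjusted p = 0.056), a subunit of prolyl hydroxylase. P4hb was also the 1 that fell in females (-0.53 ± 0.15, adjusted p = 0.0402). Of 13 matrix turnover genes, 2 rose and 1 fell in males and 1 fell in females. Mmp15, a membrane-bound metalloproteinase, rose in males (1.4 ± 0.31, adjusted p = 0.00131). Plau, the urokinase plasminogen activator, had no reads in any male control. At 5 mg/kg it was at 2.41 to 18.9 CPM (6.51 ± 6.98, SD), 4.05-fold higher with the same floor for the controls (adjusted p = 0.0514 in edgeR's test). The counting error of the treated males is not in that value. The part of their larger libraries in this call was not tested. Plg, plasminogen, a product of hepatocytes, fell in males (-0.86 ± 0.1, adjusted p = 5.2e-09) and females (-0.63 ± 0.1, adjusted p = 1.22e-05). The list medians in males were 0.08 and 0.99, or 0.13 and 0.99 with bounds and without genes that give no fold.

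The TGF-β pathway held no call at 5 mg/kg. Of its 28 genes tested 0 were called in males (3 at an unadjusted p below 0.05, list median 0.22, or 0.13 without the 3 that give no fold) and 0 in females (5, list median -0.21, or -0.22 without the 3 that give no fold) by edgeR. An unadjusted p below 0.05 was reached by 22.8% of all genes in males and 18% in females. Of all genes 9.35% were called in males and 4.09% in females. Among 11 contractile genes 1 rose in males, about the 9.35% of all genes called. It was Tpm1, a tropomyosin (1.92 ± 0.51, adjusted p = 0.00975), and 0 were called in females by edgeR, with 2 at an unadjusted p below 0.05. Tpm1 in females had a log2 fold change of -0.07 ± 0.49.

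Of 26 further stellate cell genes tested, edgeR called 0 in females, where 4.09% of all genes were called. In females 6 had an unadjusted p below 0.05, against 18% of all genes. In males 2 rose and 2 fell, where 9.35% of all genes were called. Vim, which encodes the filament protein vimentin of mesenchymal cells, rose (1.04 ± 0.27, adjusted p = 0.00962 in edgeR's test), and so did Cygb, the stellate cell globin (1.35 ± 0.48, adjusted p = 0.0902). Cxcl12, a chemokine, fell (-1.1 ± 0.23, adjusted p = 0.000696). Hhip, a hedgehog binding protein, had reads in 3 of 5 male controls and in 0 of 5 treated males. With the same floor set for the treated males it was 2.75-fold lower (adjusted p = 0.0435 in edgeR's test). The counting error of the controls is not in that value. The list median was -0.15 in males (-0.24 with bounds, 2 genes giving no fold) and -0.7 in females (-0.46 with bounds, 3 giving no fold). The summed level of the list was 308 to 422 CPM in male controls and 317 to 354 CPM at 5 mg/kg. Of 10 retinoid genes 1 rose and 1 fell in males and 1 rose in females, where 9.35% and 4.09% of all genes were called. Aldh1a1, which makes retinoic acid, rose in both sexes (1.48 ± 0.3, adjusted p = 0.000357, and 1.02 ± 0.3, adjusted p = 0.0439), and Rbp4, the plasma carrier of retinol made by hepatocytes, fell in males (-1.09 ± 0.17, adjusted p = 2.76e-06).

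**Figure D4:**
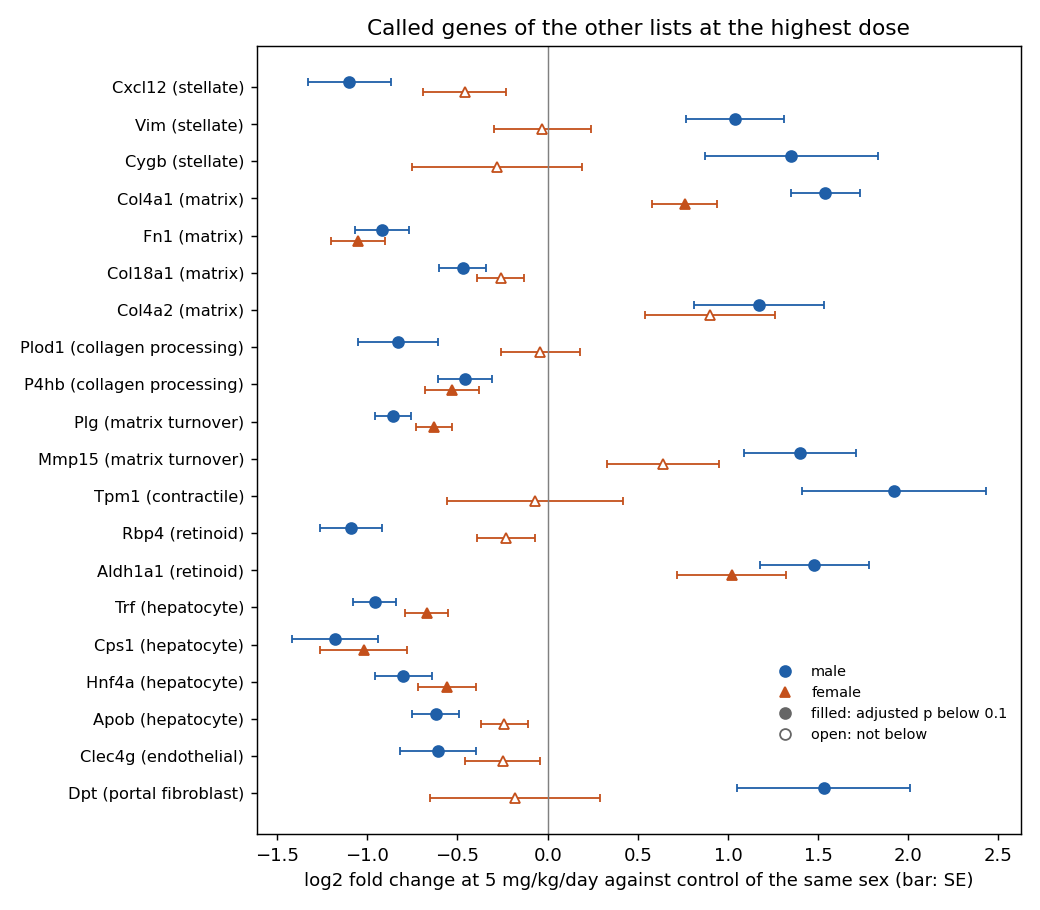
Log2 fold change (x axis, with SE bars) at 5 mg/kg against control mice of the same sex for the 20 named genes of the other lists that had reads in both groups (y axis, list in brackets), with males as circles and females as triangles, filled where the adjusted p was below 0.1. In males Col4a1, Vim and Tpm1 lie to the right of 0 and Fn1, Plg and Rbp4 to the left.

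Markers of the other cells of a liver section were read in the same libraries. Among 9 portal fibroblast genes tested 1 was called in males, where 9.35% of all genes were. It was Dpt (dermatopontin), higher at 5 mg/kg (1.53 ± 0.48, adjusted p = 0.0418 in edgeR's test). Its ranges overlapped, at 1.98 to 13.5 CPM in male controls and 5.11 to 51.2 CPM at 5 mg/kg. In this list 4 genes had an unadjusted p below 0.05, against 22.8% of all genes in males. The list median was 1.24, or 0.49 without the 3 genes that give no fold. The summed level of the list was 9.52 to 33.4 CPM in male controls and 20.7 to 83.9 CPM at 5 mg/kg. Eln, Clec3b and Pi16 of this list were at 0 in all male controls. Of 12 endothelial genes 1 was called in males, under the 9.35% of all genes, which was Clec4g, lower at 5 mg/kg (-0.61 ± 0.21, adjusted p = 0.0688), and the list summed to 450 to 473 and 333 to 491 CPM. By edgeR 0 of 11 Kupffer cell genes, 0 of 4 cholangiocyte genes, 0 of 5 mesothelial genes, 0 of 4 leukocyte genes and 0 of 1 adipocyte genes were called in males at 5 mg/kg, with 2, 2, 1, 1 and 0 at an unadjusted p below 0.05. In females at 5 mg/kg edgeR called 0 genes of the portal fibroblast, endothelial, Kupffer, cholangiocyte, mesothelial, leukocyte and adipocyte lists, with 0, 0, 0, 2, 2, 2 and 0 at an unadjusted p below 0.05. Of all genes 4.09% were called in females and 18% had an unadjusted p below 0.05. The Kupffer list summed to 126 to 259 CPM in male controls and 130 to 174 CPM at 5 mg/kg, with Timd4 at 0 in both groups and Marco at 0 in the treated group. The part of any of these cell types in the rise of Col1a1 and Col3a1 was not tested.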

How the data were processed

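The deposited values were raw read counts per probe, made by the authors with bcl2fastq 2.17.1.14 and Bowtie against probes (build mm10, per the submitters' processing notes) and not normalized. Counts of 30146 probes were analysed in R 4.3.3 with edgeR 4.0.16 (TMM scaling, default low count filter, quasi-likelihood F-test, a coefficient per group over all 8 groups, no covariates), with DESeq2 1.42.0 as an alternative and limma 3.58.1 as edgeR's support. P values are two-sided. They measure the spread between mice, each a separate animal. CPM were taken after TMM scaling and log2 CPM with a prior count of 2. A standard error is the log2 fold change divided by the root of F. The number of molecules is the reads divided by the position of the tallest peak of the histogram of counts (Gaussian smoothing of 2 reads). That this peak stands for 1 captured molecule is an assumption. Floors and bounds cover the counting error of the group without reads only, and the molecules of the other group enter as exact. The fits and the peak finder were tested on simulated data. Sex labels matched a male-specific transcript in 40 of 40 libraries. All 10 members were named in the text. Of each other list, up to 4 genes called in any dose comparison, with the smallest p, were named, and for each member up to 3 genes with the highest r. One item that falls under these rules is not reported here. The members, lists and rules were chosen with earlier results of these data known. Alternatives were another tool, scaling or filter, all 40 libraries, a fit of the compared groups alone, the sum of a gene's probes, counts in molecules and each mouse left out; thinned molecules were added after seeing the data. Other measurements of the study were not used here.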

Additional observations from a re-analysis of the deposited data

Results flagged for a closer look

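Values of 1 mouse far from the rest of its group were looked for with Dixon's test in 76 sets (a member in a group of 4 or 5 mice), of which 11 stood out. The test flags about 1 in 20 by chance where values are well counted, and it flags any set in which a single mouse had reads, so the number of sets that stood out is not read against chance. Col1a1 was at 70 CPM in mouse 255 (female, 0.1 mg/kg), against 4 to 14.4 CPM in the other 4, and the same mouse had no reads of Tgfb1, against 4.49 to 4.97 CPM, a value of 0. Col3a1 was at 39.3 CPM in mouse 305 (male, 0.5 mg/kg), against 2.71 to 10.5 CPM. Tgfb1 was at 9.65 CPM in mouse 302 (male, 0.5 mg/kg), against 4.8 to 5.87 CPM. Acta2 was at 2.33 CPM in mouse 451 (female, 5 mg/kg), against 0 to 0.585 CPM. In the other sets the remaining mice had no reads: Acta2 at 4.68 CPM in mouse 253, 2.7 CPM in mouse 302 and 1.9 CPM in mouse 354, and Timp1 at 2.96 CPM in mouse 253, 1.94 CPM in mouse 303 and 2.8 CPM in mouse 353.

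The shallow library of mouse 355 (female, 0.5 mg/kg), which entered no comparison, stood for 92099 molecules. It held 4 members above every female control when scaled with all 40 libraries. The share of all genes that lay above every female control was not counted, so the 4 are not read as a result about the members. Timp1 was at 14.2 CPM, against 0 in the 5 controls, from 117 reads or 1.61 molecules. Dcn was at 177 CPM, from 20 molecules, against 43.9 to 69.1 CPM in controls and 30.1 to 51.7 CPM in the other 4 females of its dose. Col1a1 was at 48.7 CPM, from 5.5 molecules, against 14.3 to 28.5 CPM, and Tgfb1 at 8.38 CPM, from 0.947 molecules, against 2.17 to 6.8 CPM.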

How the results depend on the processing

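Of 96 counts of members called under another setting, 89 stayed within 1.5 times the reported one. In most of these comparisons the reported count was 0, and 0 against 0 was taken as within. The loss of 1 of 3 members was too, as for Col1a1 in males at 5 mg/kg with all 40 libraries (adjusted p = 0.119 by edgeR). The 89 therefore does not measure how stable the calls are. In males at 5 mg/kg 6 members were called with counts in molecules, in place of 3, with Col1a2 (adjusted p = 0.0542 by edgeR), Lrat (0.0734) and Timp1 (0.081) added. That setting called 2130 of 17875 probes, against 1480 of 17877 in the main fit. Col1a2 and Lrat were each called in 1 of 8 other settings. With thinned molecules Timp1 was not called (adjusted p = 0.199 by edgeR). In females at 5 mg/kg 1 was called, in place of 0, by DESeq2, with no low count filter and with probes summed by gene, each time Ecm1. The trend in females called 0, in place of 1, with DESeq2's size factors, with all 40 libraries and with thinned molecules. With 1 mouse left out, the count in males at 5 mg/kg ranged from 1 (without mouse 402) to 3, in females at 5 mg/kg from 0 to 1, in the trend of males from 2 (without mouse 101) to 4 and in that of females from 0 to 1. It stayed at 0 in the other 8 comparisons. The call of Col3a1 in males held in 8 of 8 other settings, at log2 fold changes of 1.97 to 2.5, and without each of 10 mice, at 2.3 to 2.66. Over all probes, those called at 5 mg/kg numbered 1480 in males and 655 in females, and 834 and 238 with all 40 libraries, and DESeq2 called 988 in females. Timp1's trend in males was lost with DESeq2 (adjusted p = 0.406), with no filter (0.127) and with thinned molecules (1). The causes were not tested. No member whose value was called in either setting changed direction. Depth limited Acta2, Timp1, Tgfb1 and Lrat most, at medians of 0 to 2.4 molecules per library. No paired analysis was possible because the replicate numbers are animal numbers that no 2 groups share.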
